A study of Homo sapiens with 8 samples.

Results

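Regions of open chromatin that U-937 cells held under all 4 treatments, and whose peaks ranked higher when Corin was present, are described here. Accessibility was read by ATAC-seq, an assay that inserts sequencing adapters into open DNA with the Tn5 transposase. U-937 is a human myeloid leukaemia line with monocytic features. The cells were kept for 24 h in DMSO (the vehicle), in 0.1 µM ATRA, in 0.1 µM Corin, or in ATRA and Corin at 0.1 µM each, called the combination below. Each group had 2 samples, 8 in all, from 1 cell line, so every group shares its genotype. The deposited data were 1 list of peaks per group that combined its replicates. Replicate error is thus unknown for every value given here, and differences between treatments were not testable.

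Overlapping peaks of the 4 lists were merged into 161291 union regions, of which 66303 held a peak in every list and are called constitutive. In each list a region was given the highest fold over local background of its peaks, and that fold was turned into a percentile among the constitutive regions, on a scale from 0 to 1. A region was counted as strengthened when its percentile was at least 0.10 higher with Corin than with DMSO and at least 0.10 higher with the combination than with ATRA. This rule chose 6920 regions, 10.4% of the constitutive ones. The fold values of all 4 lists chose the regions, so those values are given as a description and support nothing further. The mirrored rule, at least 0.10 lower in both, chose 7459 regions (11.2%), which are used as the contrasting set and called weakened.

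Corin joins an inhibitor of the histone demethylase LSD1 (KDM1A) to an inhibitor of class I histone deacetylases. Both enzymes sit in the CoREST complex, a co-repressor that removes activating marks from histones at sites to which DNA-binding factors such as GFI1, REST and SNAI1 bring it. ATRA, all-trans retinoic acid, is the ligand of the retinoic acid receptors and drives myeloid leukaemia cells towards maturation. AP-1 is a pair of basic leucine zipper proteins of the JUN, FOS, ATF and MAF families that binds TGANTCA. PU.1 (SPI1) is a main factor of myeloid enhancers, and GFI1 is a zinc finger repressor that recruits LSD1. Promoter peaks in the DMSO list were found for 7 of 10 myeloid marker genes, among them SPI1, CEBPA, CSF1R and LYZ and not MPO, CYBB and FCGR1A. They were also found for 5 of 6 B cell genes, 2 of 6 T cell genes, 2 of 6 erythroid genes and 2 of 6 epithelial genes, so open promoters did not single out the myeloid type.

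Sequences are given first for the regions with the largest differences. Of the 10 regions ranked highest by the smaller of their 2 differences, 9 are described here, and those 6 of the 9 whose 200-bp window at the Corin summit lay outside annotated exons are printed. The windows run 5′ to 3′ on the plus strand of hg38, with every match to the 19 searched motifs in capitals. They show how often TGANTCA recurs, and where it lies next to other motifs. They are named by the nearest coding gene, which need not be their target.
SLC25A4, chr4:185112190-185112389, window: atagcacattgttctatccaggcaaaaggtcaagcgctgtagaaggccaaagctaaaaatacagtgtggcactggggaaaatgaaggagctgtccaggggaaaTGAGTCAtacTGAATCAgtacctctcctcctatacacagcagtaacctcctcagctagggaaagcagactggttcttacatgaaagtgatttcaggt
CEP350, chr1:180040202-180040401, window: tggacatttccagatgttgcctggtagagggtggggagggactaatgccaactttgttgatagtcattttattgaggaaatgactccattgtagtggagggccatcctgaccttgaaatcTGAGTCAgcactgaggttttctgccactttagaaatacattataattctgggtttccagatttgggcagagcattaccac
PDPN, chr1:13593929-13594128, window: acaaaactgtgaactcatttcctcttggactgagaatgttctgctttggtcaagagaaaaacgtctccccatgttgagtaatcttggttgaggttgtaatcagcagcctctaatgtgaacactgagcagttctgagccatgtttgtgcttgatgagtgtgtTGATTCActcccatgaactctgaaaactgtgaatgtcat
PDE4D, chr5:58844871-58845070, window: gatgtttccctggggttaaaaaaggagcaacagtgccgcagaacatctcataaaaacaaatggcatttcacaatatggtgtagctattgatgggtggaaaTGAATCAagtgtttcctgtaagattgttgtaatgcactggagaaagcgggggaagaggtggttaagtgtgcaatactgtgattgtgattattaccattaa
VAPA, chr18:9961143-9961342, window: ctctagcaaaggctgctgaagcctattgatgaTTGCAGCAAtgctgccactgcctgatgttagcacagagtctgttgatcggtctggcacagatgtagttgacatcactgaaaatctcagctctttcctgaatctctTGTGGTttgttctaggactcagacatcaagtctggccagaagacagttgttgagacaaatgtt
ACP7, chr19:39073696-39073895, window: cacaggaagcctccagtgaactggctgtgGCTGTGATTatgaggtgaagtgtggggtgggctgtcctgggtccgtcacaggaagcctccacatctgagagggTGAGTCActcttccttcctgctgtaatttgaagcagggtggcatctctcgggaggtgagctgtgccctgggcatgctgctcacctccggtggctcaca

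The SLC25A4 window held TGAGTCA and TGAATCA close together, and the windows of CEP350, PDPN and PDE4D held 1 AP-1 match each. The ACP7 window held an AP-1 match and, on the other strand, a GFI1 match, AATCACNGC. The VAPA window had no AP-1 match and held TTGCNNCAA, read by CEBP factors, and TGTGGT, read by RUNX factors. Of the 10 regions, 8 held an AP-1 match in this window.

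With DMSO the strengthened regions were weaker than most constitutive regions, and with Corin they were stronger. Their median fold was 6.98 with DMSO and 9.30 with Corin, while the medians of all constitutive regions were 8.74 and 7.93. Their median fold was 7.78 with ATRA and 9.02 with the combination, against 11.8 and 8.81 over all constitutive regions. In percentiles, the medians of the strengthened regions were 0.37 with DMSO, 0.27 with ATRA, 0.58 with Corin and 0.51 with the combination. The read pileup at the peaks, solved from the authors' fold and p, was also higher in both lists with Corin. Its medians were 232 with DMSO, 220 with ATRA, 326 with Corin and 342 with the combination, against 234, 269, 212.5 and 257 over all constitutive regions. The local background under the strengthened peaks was higher than usual in every list, with medians of 31.0, 27.5, 32.2 and 35.6 in the same order, against 25.1, 21.0, 24.0 and 25.7. Pileups grow with the depth of a list, and that depth is not known.

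The differences were mostly moderate. Over all constitutive regions 18.8% were at least 0.10 higher with Corin than with DMSO and 27.4% were at least 0.10 higher with the combination than with ATRA. The strengthened regions had a median difference of 0.17 between Corin and DMSO (largest 0.84) and of 0.20 between the combination and ATRA (largest 0.82). Both differences reached 0.2 in 1598 regions, 0.3 in 404, 0.4 in 92 and 0.5 in 15. The weakened side was larger at each of these limits, with 2783, 1010, 296 and 86 regions. Of 10 classes by DMSO percentile, the highest, with 6630 regions, held no strengthened region, as little room for a higher percentile remains there. The share was largest, 16.7%, in the third class from the bottom.

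**Figure D1:**
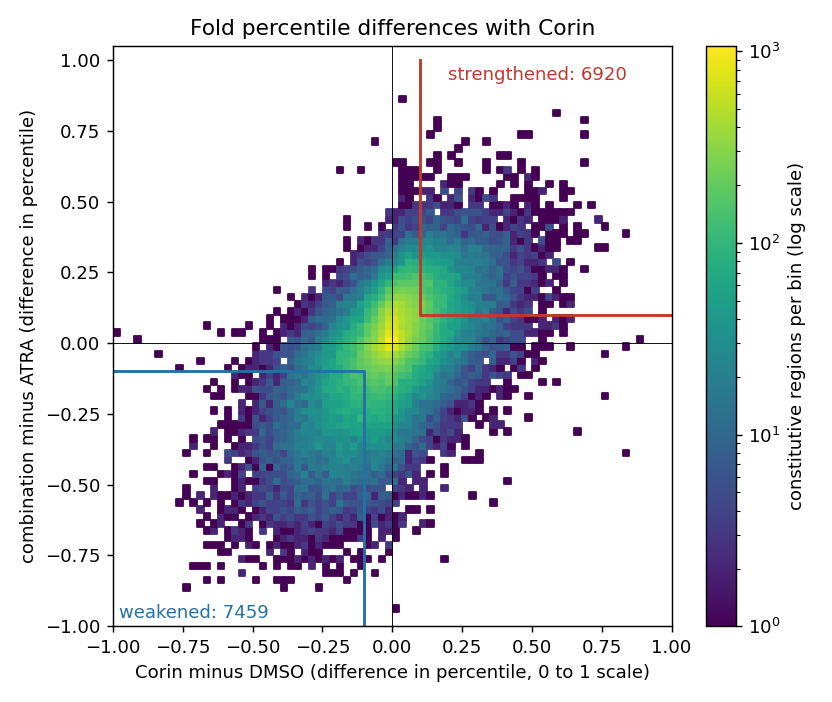
Percentile difference of Corin minus DMSO (x axis) and of the combination minus ATRA (y axis) for the 66303 constitutive regions, counted in bins of 0.025 with colour on a log scale. The red lines bound the 6920 strengthened regions and the blue lines the 7459 weakened ones, both of which are outer parts of 1 continuous cloud.

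The region with the largest pair of differences lay at chr4:185112035-185112607, in an intron of a noncoding transcript 30659 bp upstream of SLC25A4, which encodes a mitochondrial ADP/ATP carrier. Its fold was 6.16 with DMSO, 5.24 with ATRA, 21.0 with Corin and 18.5 with the combination. Both lists with Corin were thus above both lists without it. The second lay inside CD163 (chr12:7498600-7499181, overlapping an exon), the gene of the haptoglobin-haemoglobin scavenger receptor of macrophages. Its fold was 5.51, 4.74, 17.1 and 15.4 in the order DMSO, ATRA, Corin and combination, which is kept below. The third lay in an intron of CEP350, a centrosomal protein (chr1:180040048-180040653), at folds of 5.15, 4.55, 16.1 and 13.2.

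Next came a region overlapping an exon 12953 bp upstream of LAMTOR5, a subunit of the lysosomal Ragulator complex (chr1:110420895-110421717), at 6.96, 4.55, 19.3 and 18.0. A region in an intron of PDPN, the membrane glycoprotein podoplanin (chr1:13593551-13594312), stood at 5.52, 7.22, 13.7 and 14.8. One in an intron of RAB3C, with the start of PDE4D as the nearest coding start 154587 bp away (chr5:58844456-58845345), stood at 4.64, 6.23, 12.9 and 13.2. In these 3 regions too both folds with Corin were above both without it. The ranking by these same folds favours such a gap, and its share over all constitutive regions was not counted.

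An intergenic region (chr18:9961008-9961568) had folds of 4.11, 4.68, 12.5 and 11.1. It lay 46946 bp from the nearest coding start of VAPA and 13414 bp from the start of another VAPA transcript. Distances to a coding gene are to its nearest coding start unless another start is named. A region at the start of the pseudogene OR1F2P, with the start of ZNF200 19066 bp away (chr16:3214757-3216004), had 4.13, 6.03, 10.5 and 12.6. The last, 10320 bp upstream of ACP7 (chr19:39073433-39074048), had folds of 7.17, 4.35, 22.7 and 10.7, with the combination well below Corin alone. All 9 stayed strengthened when regions were ranked by −log10 p, by pileup or by the mean fold of their peaks. They had the largest differences, and these measures come from the same peaks, so this is no separate support. Of all 105 named regions 71, 57 and 54 stayed, in that order.

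**Figure D2:**
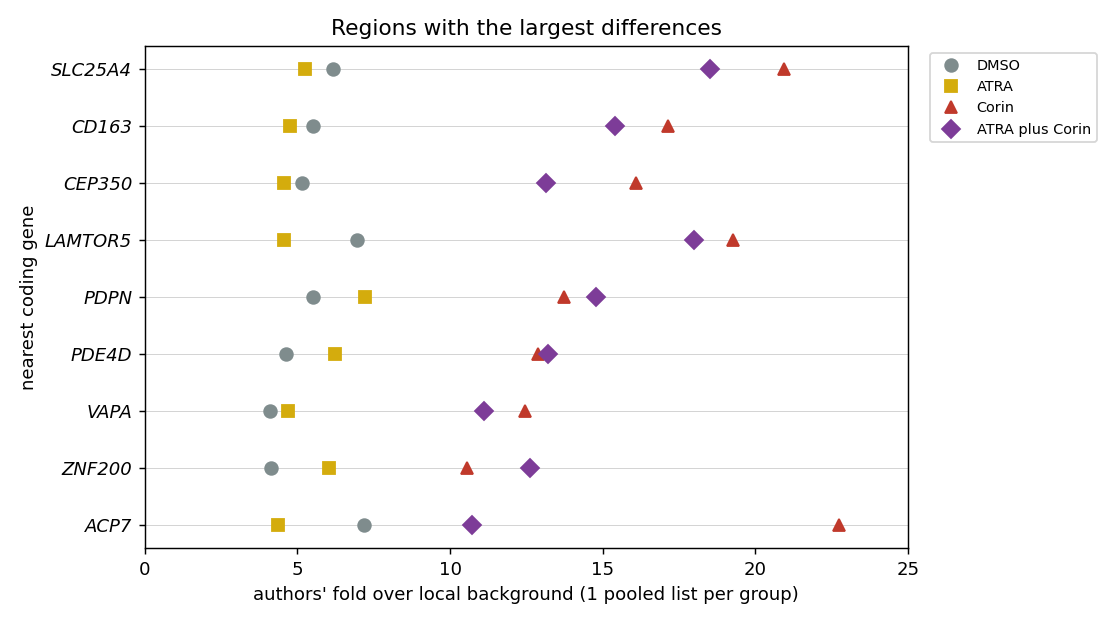
The authors' fold over local background (x axis) of 9 of the 10 regions with the largest differences, named by the nearest coding gene (y axis), with 1 point per treatment and no replicate values. In every region the points of Corin and the combination lie to the right of those of DMSO and ATRA, most widely for SLC25A4 and most narrowly, between the combination and DMSO, for ACP7. The regions were chosen by these same folds.

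The 5 strengthened regions that ranked highest with Corin were already strong without it. In the region overlapping an exon of AGO1, an Argonaute of RNA silencing (chr1:35893602-35894876), the fold was 14.2 with DMSO, 19.4 with ATRA, 24.0 with Corin and 23.5 with the combination. The region 15220 bp upstream of ARID1A, a SWI/SNF remodeller subunit (chr1:26677246-26678016), had 14.6, 17.02, 22.2 and 23.3. Regions 143878 bp upstream of ZNF469 (14.0, 18.8, 21.6 and 31.8), 146468 bp upstream of ROPN1B (15.9, 17.2, 22.4 and 22.1) and inside RPTOR, the scaffold of the mTORC1 kinase (15.4, 17.7, 22.3 and 21.1), completed the group. All 5 held an AP-1 match. By the mean fold of their peaks none of the 5 passed the limit, and the smaller difference was -0.04 for AGO1 and -0.02 for RPTOR.

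At the threshold itself the choice was fine. Just inside were the promoter of ARHGAP27 (8.86, 10.2, 9.71 and 10.2), a region near SPN (7.79, 11.4, 10.2 and 10.1) and one near IFNAR2 (7.19, 6.04, 7.70 and 7.48). Just outside were regions near PLA2G4E (5.26, 7.63, 6.52 and 6.79) and MSL1 (4.78, 5.84, 5.04 and 5.82) and the promoter of MAZ (6.60, 7.07, 7.01 and 7.15). For SPN, PLA2G4E and MSL1 the highest fold was that with ATRA, although the percentile was higher with the combination.

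Sequence was not used by the rule. The motifs were, however, chosen with earlier results of these data known, including more AP-1 matches in regions gained with Corin. The AP-1 shares below are thus a description and no independent evidence. Of the 19 motifs AP-1 had the widest gap in percentage points between strengthened and constitutive regions. In the 200 bp at the Corin summit, TGANTCA was found in 2252 strengthened regions, or 32.5% (95% Wilson interval 31.4 to 33.7). It was found in 15.0% (14.7 to 15.3) of all constitutive regions and in 6.54% (6.003 to 7.126) of the weakened ones. These intervals cover counting error over regions only. The reversed letters ACTNAGT, which keep the base composition, were found in 5.53%, 4.54% and 4.48%. Read the other way, 22.6% of the 9950 constitutive regions with an AP-1 match were strengthened and 4.90% were weakened, against 8.28% and 12.4% of the 56353 regions without one.

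The share of AP-1 windows went up with the size of the difference. It was 27.4% in the regions whose difference nearer to 0 was from 0.1 to 0.2, 46.2% from 0.2 to 0.3, 59.0% from 0.3 to 0.4 and 62.0% (51.7 to 71.2) in the 92 regions at or beyond 0.4. On the weakened side it went down to 4.39% of the 296 regions at or beyond -0.4. Regions with both differences between 0 and 0.1 stood at 16.4% and those between -0.1 and 0 at 9.54%.

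**Figure D3:**
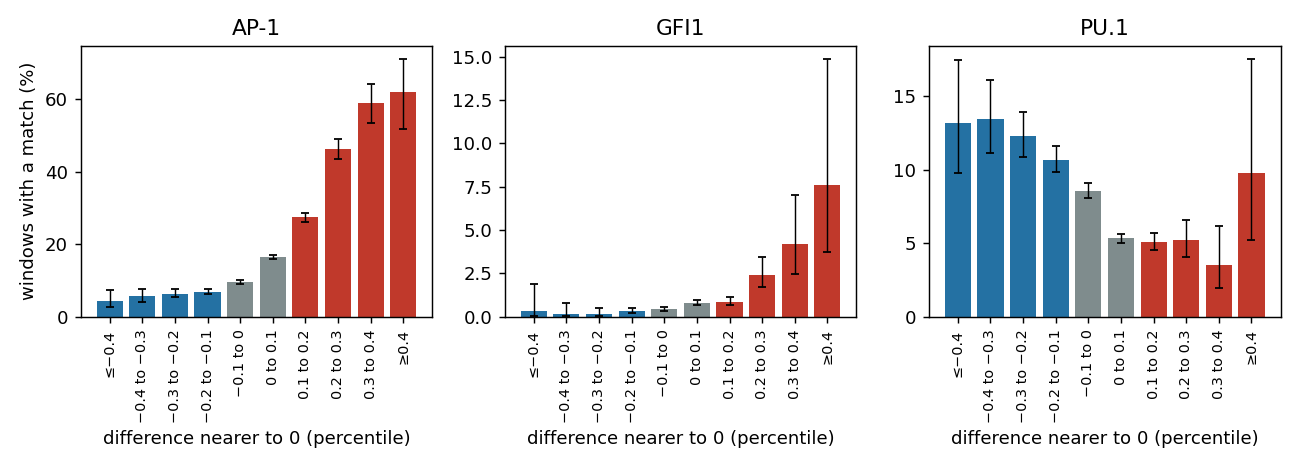
Share of 200-bp windows with an AP-1, GFI1 or PU.1 match (y axes, in percent, each panel with its own scale) by the difference nearer to 0 among regions whose 2 differences had the same sign (x axes), with 95% Wilson intervals as bars. AP-1 goes from 4.39% on the left to 62.0% on the right and GFI1 from 0.338% to 7.61%, while PU.1 lies between 10.7% and 13.4% on the weakened side and between 3.53% and 9.78% on the strengthened side.

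The difference was present within classes of base composition and of position. In windows with at most 45% GC, AP-1 was found in 40.5% of the strengthened and 18.8% of all constitutive regions. The pair was 39.9% and 18.4% from 45 to 55% GC, 31.4% and 12.2% from 55 to 65%, and 5.94% and 3.10% above 65%. Away from promoters it was 38.8% against 17.5%, and at promoters 19.1% against 9.13%. Within 5 classes of the mean percentile over the 4 lists the share of the strengthened regions lay between 28.1% and 35.9%, and that of all constitutive regions between 14.1% and 15.7%. With other rules for choosing the strengthened regions the share ran from 23.4% (mean fold of the peaks) to 49.6% (a limit of 0.20). Each was above the 15.0% of the constitutive regions used here. Some of these rules also change which regions are constitutive, and the share over those changed sets was not computed.

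The matches lay close to the summit. Among the strengthened regions with a match, 45.4% had one within 20 bp of the summit, against 37.7% among all constitutive and 25% among weakened regions with a match. More than 1 match was present in 339 strengthened regions (4.90%, against 1.42% of all constitutive ones). The form TGACTCA or its complement TGAGTCA was found in 27.4% (constitutive 11.97%) and the form TGAATCA or TGATTCA in 6.98% (constitutive 3.52%). The cyclic AMP response element TGACGTCA, bound by related factors, was rarer at 1.01% against 0.590% of constitutive and 0.107% of weakened regions. Unlike AP-1 it did not go up steadily with the difference. It stood at 1.06% from 0 to 0.1, 1.13% from 0.1 to 0.2, 0.503% from 0.2 to 0.3 and 1.28% from 0.3 to 0.4. At or beyond 0.4 it was found in 0 of 92 regions. Of the 70 strengthened regions with it, 78.6% were promoters.

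**Figure D4:**
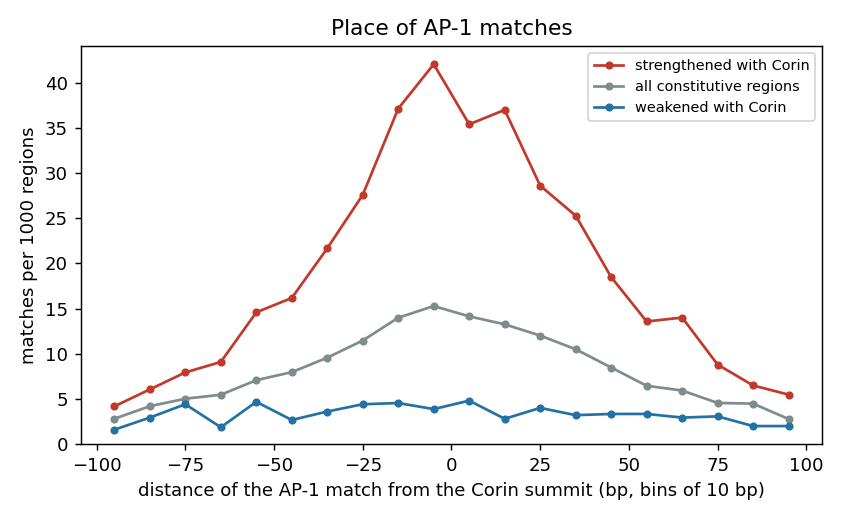
Distance of AP-1 matches from the Corin summit in bins of 10 bp (x axis, in bp) and matches per 1000 regions (y axis) for the strengthened, all constitutive and weakened regions. The strengthened regions peak at 42.1 matches per 1000 regions in the bin just before the summit, where the constitutive regions stand at 15.3 and the weakened at 3.89.

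Short stretches of 41 bases show AP-1 matches in strengthened regions near well known genes, with the match in capitals, again on the plus strand of hg38. They were taken from the gene lists described below, and 1 or 2 are given per theme.
GFI1, chr1:92537191-92537231, site: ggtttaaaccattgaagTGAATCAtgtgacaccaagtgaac
JUN, chr1:58823849-58823889, site: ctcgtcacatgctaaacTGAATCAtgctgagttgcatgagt
FOSL2, chr2:28409448-28409488, site: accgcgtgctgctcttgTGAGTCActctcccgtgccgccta
LMO2, chr11:33898236-33898276, site: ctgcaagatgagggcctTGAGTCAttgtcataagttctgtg
RUNX1, chr21:34967667-34967707, site: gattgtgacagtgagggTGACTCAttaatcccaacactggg
CIITA, chr16:10862629-10862669, site: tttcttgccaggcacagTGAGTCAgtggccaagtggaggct
BCL2, chr18:63161896-63161936, site: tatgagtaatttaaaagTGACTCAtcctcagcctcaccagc
The match near RUNX1 lay 1 bp from the Corin summit, and that near LMO2 lay 81 bp away. JUN and FOSL2 encode AP-1 subunits themselves.

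GFI1 matches (AATCACNGC) were rare and had a similar ordering. They were found in 95 strengthened regions, or 1.37% (1.12 to 1.68), against 0.701% of all constitutive and 0.268% of weakened regions. Among the 92 regions with both differences of at least 0.4 the share was 7.61% (3.73 to 14.9), from 7 regions. The letters AATCAC can overlap TGAATCA, and in 10 of the 95 regions the 2 matches overlapped. In windows without any AP-1 match, GFI1 was found in 60 of 4668 strengthened regions (1.29%), against 0.649% of constitutive and 0.273% of weakened ones.

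PU.1 matches (GAGGAAGT) were fewer in the strengthened regions, at 5.10% (4.61 to 5.64), against 6.97% of all constitutive and 11.4% of weakened regions. The reversed PU.1 letters stood at 1.56%, 1.22% and 1.42%. RUNX (TGTGGT) was ordered in the same way, at 18.5%, 21.2% and 27.3%, and its reversed letters at 10.9%, 11.1% and 12.1%. By size of the difference, however, RUNX stood at 17.6% from 0.1 to 0.2, 21.4% from 0.2 to 0.3, 20.2% from 0.3 to 0.4 and 29.3% (21.0 to 39.3) at or beyond 0.4, and at 37.5% at or beyond -0.4. CTCF was found in 5.55% of the strengthened regions, below both the constitutive (8.37%) and the weakened ones (8.06%). CEBP matches stood at 2.08%, 2.15% and 2.68%, and IRF matches at 2.34%, 2.77% and 3.23%. The reversed IRF letters had nearly the same levels and order, at 1.98%, 2.22% and 2.55%. KLF/SP (GGGCGG) was close between strengthened and constitutive regions, at 20.4% and 18.7%, and rare in weakened ones at 5.67%. Its reversed letters had the same pattern, at 21.0%, 18.9% and 6.15%, so this order is no result on the motif. The SNAI/ZEB E-box CAGGTG stood at 11.8%, 10.8% and 8.51%. The REST motif was found in 1 strengthened region (0.014%), against 25 constitutive (0.038%) and 10 weakened ones (0.134%). The direct repeat (DR5) of the retinoic acid receptors was found in 1 strengthened region (0.014%), 9 constitutive (0.014%) and 0 weakened ones. A match is only a run of letters, and no factor's binding was measured.

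**Figure D5:**
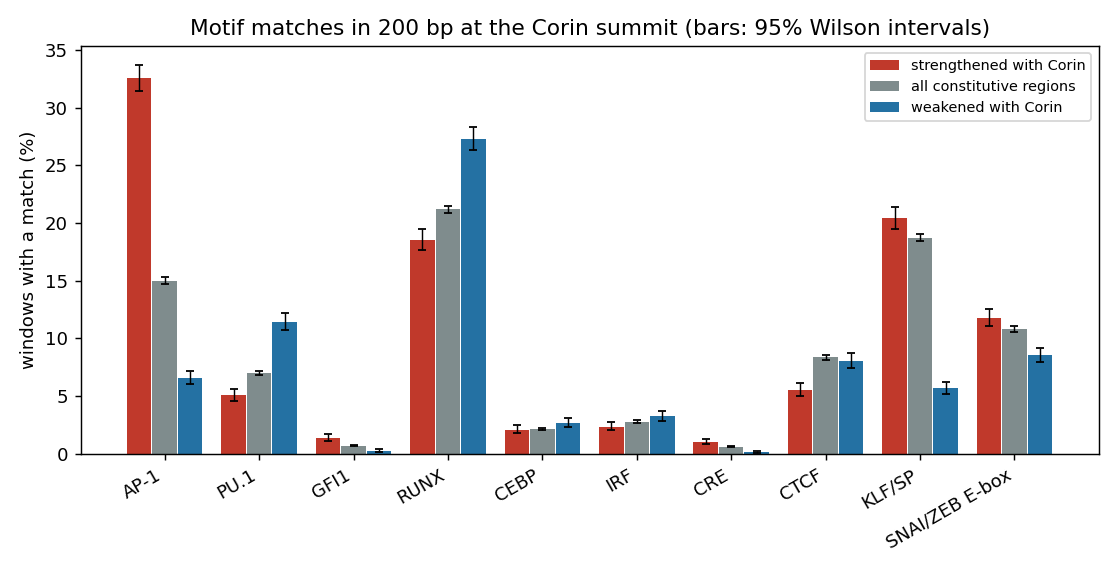
Share of 200-bp windows at the Corin summit with a match to each of 10 motifs (y axis, in percent) in strengthened, all constitutive and weakened regions, with 95% Wilson intervals that cover counting error only. AP-1 stands at 32.5%, 15.0% and 6.54%, and RUNX and PU.1 are ordered the opposite way.

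In position and base composition the strengthened regions were close to constitutive regions at large, while the weakened ones were not. Promoters (a transcription start in the annotation at most 1 kb away) made up 31.9% of the strengthened, 30.2% of the constitutive and 13.6% of the weakened regions. Introns made up 35.9%, 37.0% and 47.7%, exons 6.81%, 7.57% and 9.36%, and intergenic sequence 25.3%, 25.3% and 29.4%. The median GC content was 50.5% in the strengthened and constitutive regions and 47.5% in the weakened ones. This closeness depended on the ranking. The promoter share was 23.4% when regions were ranked by −log10 p, 20.3% by pileup and 41.9% by the mean fold, the first 2 below the 30.2% of constitutive regions.

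The strengthened regions had a median width of 855.5 bp, against 897 bp for all constitutive regions. The nearest other constitutive region lay a median of 3284.5 bp away, against 5917 bp overall and 10794 bp for the weakened regions. That neighbour was itself strengthened in 10.1% of the cases within 10 kb, against 13.4% for constitutive regions in general. The Corin summit was displaced from the DMSO summit by a median of 9 bp in the strengthened regions and in constitutive regions alike. A displacement over 50 bp between Corin and DMSO was found in 8.71% of the strengthened and 8.88% of the constitutive regions. Between the combination and ATRA it was found in 13.2% and 9.56%. By chromosome the share of constitutive regions that were strengthened lay between 9.004% (chromosome 4) and 12.9% (chromosome 16), apart from chromosome Y with 0 of 2.

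The rule used the ATRA and DMSO percentiles too, and a low value with ATRA makes a region easier to choose, so the next counts are a description from which nothing is read. ATRA was at least 0.10 below DMSO in 43.2% of the strengthened regions and at least 0.10 above it in 10.3% (27.3% and 23.5% of all constitutive regions). The combination was at least 0.10 below Corin alone in 33.8% and above it in 10.1% (18.9% and 19.4%). Median percentiles of the strengthened AP-1 regions were 0.39 with DMSO, 0.23 with ATRA, 0.67 with Corin and 0.49 with the combination.

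One region inside BCL2, with an AP-1 match, had a wide spread over the 4 lists. BCL2 encodes a protein that blocks mitochondrial apoptosis, and the region (chr18:63161510-63162157) overlaps the start of a shorter transcript, 157612 bp from the start of the gene's canonical transcript. The fold was 11.3 with DMSO, 2.77 with ATRA, 20.6 with Corin and 8.56 with the combination, and the pileups were 296, 27, 776 and 136. Corin alone was thus the highest and ATRA alone the lowest. An intronic region of RUNX1 (chr21:34967423-34968239) was ordered alike, with folds of 8.63, 3.29, 12.9 and 5.70, as was a region 9754 bp upstream of IRF8 without an AP-1 match (chr16:85888479-85889408), at 12.003, 7.31, 17.01 and 11.0. By the mean fold of its peaks the RUNX1 region was not strengthened, with a smaller difference of -0.13, and those of BCL2 and IRF8 missed the limit.

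Each region was assigned to the coding gene with the nearest transcription start within 100 kb, which says nothing on which gene it acts. Over all coding genes, 4295 of 15460 with a constitutive region (27.8%) had a strengthened one, and 10.7% of the constitutive regions so assigned were strengthened and 10.1% weakened. Genes differ in how many constitutive regions they have, so the share of regions is the measure to read against 10.7%. In all, 107 genes of the 10 lists had a strengthened region, and 68 had one when regions were ranked by pileup.

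The first list held 25 genes, those of the CoREST complex and its recruiters with 2 acetyltransferase genes, EP300 and CREBBP, that are neither. Of the 25, 24 had a constitutive region and 13 a strengthened one (22 of 163 regions, 13.5%), while 14 regions (8.59%) were weakened. EP300 and CREBBP had 1 strengthened region each, of 5 and 7. The largest difference was in an intron of EVI5, 49685 bp upstream of GFI1 (chr1:92536610-92537368), with folds of 5.80, 4.94, 11.7 and 8.84 and an AP-1 match. ZNF217, a zinc finger protein found with CoREST, had 5 of its 21 regions strengthened and 2 weakened. Of the 5 the leading one, 53636 bp upstream (chr20:53662528-53663362), had folds of 3.62, 6.33, 6.04 and 8.77. A region 63356 bp upstream of EP300, which encodes the histone acetyltransferase p300 (chr22:41028524-41029236), stood at 5.22, 6.52, 7.57 and 11.1. The promoters of the co-repressor genes CTBP1 (5.87, 7.08, 7.42 and 8.62) and REST (10.3, 9.67, 11.9 and 10.4) were strengthened by small margins. By −log10 p or pileup the REST promoter was not. None of the regions assigned to KDM1A (4 regions), RCOR1 (10), HDAC1 (1) or HDAC2 (6) was strengthened. Of these, 3 of HDAC2 and 1 of KDM1A were weakened. RCOR3, in the same list, had 1 of 3 strengthened. Counts this small say little beside the 10.7% over all coding genes.

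AP-1 and related leucine zipper genes did not stand out by share of regions, with 12 of 126 (9.52%) near 10 of 21 genes, and 10 weakened (7.94%). Of 12 regions assigned to JUN, 2 were strengthened and 3 weakened, and of 19 assigned to BACH1, none and 4. The leading JUN region, 39398 bp upstream (chr1:58823445-58824231), had folds of 8.14, 4.84, 13.01 and 10.8 and pileups of 116, 48, 363 and 205. For NFE2L2, the factor of the oxidative stress response, a region overlapping an exon (chr2:177251869-177253494) stood at 5.36, 6.55, 9.48 and 9.13. An intronic region of FOSL2 (chr2:28408949-28409752) stood at 8.18, 7.49, 12.3 and 9.93. By the mean fold of its peaks the smaller difference was -0.03.

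Myeloid transcription factor genes had 39 of 254 regions strengthened (15.4%), near 16 of 27 genes, and 17 weakened (6.69%). A region 5849 bp upstream of LMO2, a bridging factor of blood stem cell complexes (chr11:33897925-33898363), held AP-1 and GFI1 matches and stood at 4.64, 3.44, 7.94 and 6.81. Near KLF6, 66870 bp upstream (chr10:3852151-3852849), the folds were 6.91, 6.21, 11.4 and 8.16. RUNX1 had 5 of 36 regions strengthened and 3 weakened, RUNX2 4 and 3 of 13, and RUNX3 4 and 2 of 17. The leading RUNX3 region, in an intron (chr1:24954867-24955827), stood at 10.1, 11.8, 17.3 and 13.4. The promoter of IRF5, a factor of inflammatory macrophages, stood at 3.41, 2.87, 5.56 and 5.59, and missed the limit when ranked by pileup or within classes of GC content. No region of SPI1 was among them.

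Of the monocyte and macrophage genes, 18 of 34 had a strengthened region (32 of 193 regions, 16.6%), and 11 regions (5.70%) were weakened. CD163 had 3 of 5 regions strengthened, and VCAN, which encodes the matrix proteoglycan versican, had 4 of 5, with none weakened in either. The weakened regions lay near 9 genes of the list. CD36 had 1 strengthened and 3 weakened of 17, and TLR4 none and 1 of 6. None of the 10 regions of TLR2 or the 9 of CCL2 was strengthened. The leading VCAN region, 69483 bp upstream (chr5:83401012-83402191), had folds of 4.57, 5.04, 10.6 and 11.3. The region at the start of S100A8, a calcium-binding protein of neutrophils and monocytes (chr1:153389997-153391477), stood at 4.93, 6.15, 7.20 and 7.39. That at the start of the integrin gene ITGAX (chr16:31354400-31355464) stood at 7.40, 7.06, 10.0 and 9.64 and held an AP-1 match. A region inside CSF1R, the receptor of macrophage colony-stimulating factor (chr5:150052162-150053752), stood at 8.16, 5.66, 10.2 and 8.39.

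The retinoic acid response list had the highest share of regions, 16 of 86 (18.6%), near 10 of 18 genes, with 4 weakened (4.65%). The intronic region of STRA6, a retinol transporter (chr15:74200225-74201153), stood at 6.78, 7.37, 10.6 and 8.75. A region 1224 bp upstream of TGM2, a transglutaminase induced by retinoic acid (chr20:38167802-38169444), stood at 6.51, 7.13, 11.3 and 7.53, while its pileups were 214, 781, 524 and 971. At a start within DHRS3, a retinal reductase, 21362 bp from the canonical start (chr1:12595637-12596848), folds of 10.9, 12.5, 12.7 and 13.4 went with pileups of 300, 1234, 434 and 1617. In both regions the pileups were higher in both lists with ATRA, and so was the local background, and the folds did not separate the lists with ATRA from those without. Ranked by pileup, neither was strengthened.

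The next list held mainly primary granule genes, which mark immature granulocytes and monocytes. In this list 8 of 45 regions were strengthened (17.8%), near 7 of 10 genes, and 6 weakened (13.3%), near 5 genes. LTF, a gene of secondary granules, had 1 strengthened and 2 weakened regions, BPI none and 1, and CTSG 1 of each. The promoter of CTSG, cathepsin G (chr14:24576023-24577103), stood at 11.3, 10.5, 14.8 and 13.4, and that of AZU1, azurocidin, at 6.87, 6.88, 8.31 and 8.59. A start of ELANE, neutrophil elastase, 1003 bp from the canonical one, stood at 7.33, 8.81, 7.91 and 10.1. The pileups went the other way, for CTSG from 843 with DMSO to 705 with Corin and from 881 with ATRA to 693 with the combination. By pileup the smaller difference was -0.08 for CTSG, -0.03 for AZU1 and -0.09 for ELANE.

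Nucleic acid sensing and interferon genes had 14 of 104 regions strengthened (13.5%), near 11 of 31 genes, and 10 weakened (9.62%). Both constitutive regions of the MHC class II gene HLA-DRA were weakened, as were 2 of 3 of RIGI and 2 of 4 of MX1. An intronic region of CGAS, the sensor of cytosolic DNA (chr6:73441837-73443160), had folds of 4.86, 4.05, 10.9 and 11.5 and pileups of 66, 40, 257 and 298. Both lists with Corin were above those without, in folds that the rule had used. CIITA had 1 strengthened and 1 weakened region of 9. The strengthened one, 3242 bp upstream of this activator of MHC class II genes (chr16:10862405-10862980), stood at 12.2, 11.8, 19.6 and 18.3 and held AP-1, PU.1 and RUNX matches.

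The remaining lists gave the following counts. Neuronal genes bound by REST had 7 of 63 regions strengthened and as many weakened (11.1% each), the latter with both regions of SCN2A. Cell cycle and apoptosis genes had 16 of 154 strengthened (10.4%) and 6 weakened (3.90%). Erythroid, megakaryocyte and mast cell genes had 6 of 43 strengthened (14.0%), from 4 genes, and 5 weakened (11.6%). The leading neuronal region lay within 1 kb of a start of UNC13A, a factor of synaptic vesicle release (chr19:17686331-17687433), at 3.74, 7.31, 7.84 and 7.83, and its smaller difference was -0.11 by the mean fold. Beside BCL2, the apoptosis list held a region 13752 bp upstream of PMAIP1, the BH3-only protein NOXA, at 7.01, 7.66, 8.68 and 7.39. There the fold was lower with the combination than with ATRA, and only the percentile was higher. How many strengthened regions had this was not counted. The list also held a region 72298 bp upstream of the death ligand gene TNFSF10 at 10.3, 12.5, 13.3 and 14.7.

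Strengthened regions were spread thinly over genes. Of the 4295 genes, 3061 had 1 and 41 had 5 or more. The genes below were picked for their counts out of the 4295. Shares above the 10.7% over all coding genes thus follow in part from the choice. Genes on chromosome 8 are not named. CCDC88C, a regulator of Wnt and G protein signalling, had 8 of its 19 constitutive regions strengthened and none weakened. BCOR, a co-repressor of BCL6, had 8 of 29, and the ETS family repressor gene ETV6 had 7 of 25, each with 1 weakened. Their starts were among these regions, with folds of 10.4, 7.96, 12.3 and 13.4 at CCDC88C, 4.28, 4.30, 4.98 and 5.20 at BCOR, and 6.26, 4.43, 7.08 and 6.42 at ETV6. At the ETV6 start the pileup was lower with Corin (377) than with DMSO (508). ITPR1, an intracellular calcium channel, had 7 of 27, none of them with an AP-1 match, and 1 weakened.

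DUSP10, a phosphatase of the stress kinases p38 and JNK, had 6 of 14 regions strengthened, with none weakened. All 6 held an AP-1 match, against 32.5% of all strengthened regions. Of these 6, the region with the widest gap between Corin and DMSO (chr1:221667285-221668120) had folds of 5.65, 5.54, 13.9 and 5.69. A region 87286 bp upstream (chr1:221829375-221830063) had 9.07, 4.93, 13.3 and 9.22. PGS1 had 6 of 9, HPCAL1 6 of 16 with 2 weakened, and FAM9C 6 of 17 with 1 weakened. In all, 12 genes had 6 strengthened regions, and those described here had the highest shares among them. At the other end ARHGAP26 had 6 of 50, with 5 weakened. Apart from DUSP10, AP-1 matches in the genes with 6 ranged from 0 of 6 (RBMS1) to 4 of 6 (ARHGEF3).

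The choice of strength decided much of the membership. Of the 6920 regions, 59.6% overlapped a region chosen by −log10 p, 51.5% one chosen by mean fold and 46.2% one chosen by pileup. Whether replicate cultures would give the same regions was not tested.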

How the data were processed

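Chromatin accessibility was measured by ATAC-seq in 8 samples of U-937 cells, 2 in each of 4 groups. Per the submitters' processing notes, cutadapt, Bowtie2, SAMtools, Picard and MACS2 were used with the build hg38, and their versions and settings are not given in the sources used here. The authors deposited 1 list of peaks per group. In it each peak has a fold over the local background, as deposited by the authors' peak caller. The p and q of each peak are −log10 values that the authors deposited, and the integer score column, as deposited, was not used as a measurement. No per-sample column was left unmapped (0). The total reads per list are unknown.

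Peaks sharing at least 1 bp were merged, and the fold, percentile and 0.10 limit were applied as given in the report. The strength of a region was its highest fold. The pileup and background of a peak were solved from its fold and −log10 p under a Poisson model, with the pileup within 0.05 of a whole number. Positions came from GENCODE release 44, with a promoter limit of 1 kb and a limit of 100 kb to the nearest coding start. Motifs were searched on both strands in 200 bp at the summit of the strongest Corin peak. Python 3.11.15, numpy 2.4.6, pandas 2.3.3, scipy 1.17.1, statsmodels 0.14.6 and pysam 0.24.0 were used. The code that chooses regions was run on simulated data with planted rises, which checks the code and not the regions chosen here.

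With 1 list per group no test between treatments could be made. Named regions were the 10 with the largest smaller difference, the 5 with the highest mean percentile over both Corin lists, 3 on each side of the limit and, for up to 12 genes of each of 10 lists, the region with the largest smaller difference. Outside chromosome 8, 8 genes with the most strengthened regions were added. Among the genes tied at 6, those with the fewest constitutive regions, and so the highest shares, were taken. A few regions chosen by these rules are not reported here. The regions, motifs and gene lists were chosen with earlier results of these data known, including more AP-1 matches in regions gained with Corin, so those are no independent evidence. Alternatives were other measures of strength, limits, classes of GC content and width, windows, promoter limits and merging rules.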

Additional observations from a re-analysis of the deposited data

How the results depend on the processing

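No paired analysis was possible because each group had 1 pooled list whose columns carry no replicate number. For the same reason no replicate could be left out. The number of strengthened regions was 13525 at a limit of 0.05 and 1598 at 0.20. Their promoter share was 23.4% by −log10 p, 41.9% by mean fold, 36.4% where each list covered at least 50% of the region, 35.7% at a limit of 0.05, 22.9% at 0.20, 24.0% within classes of GC content and 20.3% by pileup. It was 42.1% with promoters up to 2.5 kb and 21.5% with coding transcripts only. In the same order of the first 7 settings the median GC content was 48.0, 53.0, 52.0, 51.5, 48.0, 48.0 and 47.0%.

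The AP-1 share was 37.5% by −log10 p, 23.4% by mean fold, 25.8% at a limit of 0.05, 49.6% at 0.20, 33.8% within GC classes, 29.8% within width classes and 39.2% by pileup. With a 100-bp window it was 25.3% (all constitutive regions 10.6%), with the whole region 44.7% (30.6%) and at the DMSO summit 30.4% (13.4%). The PU.1 share was 5.74% within GC classes, 3.45% in 100 bp (4.93%) and 11.4% in the whole region (13.1%). The GFI1 share was 2.03% by −log10 p, 1.12% by mean fold, 3.07% at 0.20, 2.15% by pileup, 0.723% in 100 bp (0.392%) and 3.77% in the whole region (2.82%). Genes of the lists with a strengthened region numbered 32 at 0.20 and 68 by pileup.

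Of 105 named regions, 71 stayed strengthened by −log10 p, 54 by mean fold, 57 by pileup, 86 within GC classes and 89 within width classes. The smaller difference turned negative in some. By −log10 p it was -0.0212 for CTSG, -0.0458 for ELANE, -0.065 for KCNH2, -0.0125 for HIC1, -0.0195 for PRAM1, -0.0847 for CRABP2, -0.0067 for KIT and -0.0162 for CDKN1B. By mean fold it was -0.0351 for AGO1, -0.0221 for RPTOR, -0.0115 for ZEB1, -0.0316 for FOSL2, -0.0318 for BACH2, -0.183 for FOS, -0.132 for RUNX1, -0.0511 for CEBPA, -0.063 for IRF4, -0.0851 for CD36, -0.0291 for FCGR3A, -0.107 for UNC13A, -0.042 for VGF, -0.076 for RARA, -0.224 for ASB2, -0.0108 for IFIT3 and -0.00332 for FAS. Within GC classes it was -0.013 for CREBBP and -0.021 for CFD. By pileup it was -0.0216 for MEIS1, -0.00312 for CEBPB, -0.0753 for CTSG, -0.0325 for AZU1, -0.0862 for ELANE, -0.108 for KCNH2, -0.0577 for HIC1, -0.0569 for PRAM1, -0.0908 for CRABP2, -0.0559 for KIT, -0.0696 for HLA-E, -0.0325 for CDKN1B and -0.000995 for CCND3. The causes of these changes were not tested. Ranking by pileup and leaving out peaks that gave no whole pileup were chosen after seeing the data. The reads behind each list are unknown, so no difference has an error of its own.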
